A study of Mus musculus with 36 samples.

Results

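The genes described here encode the subunits of the mitochondrial respiratory chain and of the ATP synthase. They were chosen by name and genome only: protein-coding genes with symbols that start with Ndufa, Ndufb, Ndufc, Ndufs, Ndufv, Uqcr, Cox4 to Cox8 or Atp5, together with Sdha, Sdhb, Sdhc, Sdhd and Cyc1, make 86 nuclear members, and the 13 protein-coding genes of the mitochondrial genome complete the set of 99, out of 37315 genes in the count table. Pseudogenes and assembly factors were left out of the members. RNA came from wild-type mice on a BL/6 background, housed one to a cage and handled for 3 minutes a day on 5 days. One group of mice stayed in the home cage, one was exposed to a context, and one received foot shocks (here called fear, the name the libraries carry). Tissue was taken 90 minutes after the behaviour from the hippocampal fields CA1 and CA3 and from the entorhinal cortex, lateral (LEC) and medial (MEC). Each of the 12 groups of region and condition had 3 libraries, 36 in all. The mice carried no transgene or deletion according to the labels, and their age is not given in the sources used here. Which libraries came from the same mouse is not said in the labels: one mouse may have given tissue to several regions, and each p-value measures the spread between these libraries only.

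Electrons from NADH enter the chain at complex I and those from succinate at complex II. They pass through complex III and cytochrome c to complex IV, where oxygen is reduced, and the proton gradient built on the way drives the ATP synthase, complex V. All complexes except complex II combine subunits made from nuclear mRNA, translated in the cytosol and imported, with a few hydrophobic core subunits made inside the organelle from mitochondrial mRNA. Neurons draw most of their ATP from this system and spend much of it on restoring ion gradients after synaptic activity.

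The counts in a library summed to between 21871412 and 68974340 (median 28098007.5). Between replicate libraries of a group the smallest chi-square per degree of freedom was 9.84, so no library appeared to be deposited more than once within its group. Libraries of different groups were not compared in this way. Marker genes followed the region labels: 5 CA1 pyramidal genes summed to 354 to 1162 CPM (counts scaled to a common library total) in CA1 and 95.7 to 294 in CA3, 6 CA3 genes to 844 to 1314 CPM in CA3 and 371 to 763 in CA1, and 9 entorhinal and neocortical layer genes to 555 to 1116 CPM in the entorhinal libraries and 240 to 546 in the hippocampal ones. Markers of dentate granule cells were present in CA1 (149 to 580 CPM summed over 7 genes) and CA3 (71.5 to 293), against 45.7 to 89.6 in the entorhinal cortex. Home cage 2 and context 2 of CA1 and of CA3 are libraries that stood apart from their region in earlier results of these data. Some of the main values they enter are also given without them. The comparisons between regions and the mean ratios of mitochondrial to nuclear counts are not. In bulk tissue, fewer cells of a type and less RNA per cell cannot be told apart.

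Of the 13 mitochondrial genes, 7 were read at very high levels and 6 at levels like those of nuclear genes. Per kilobase of transcript (CPM per kb, mean of 36 libraries), mt-Co1, the catalytic subunit of complex IV, stood at 15374, mt-Cytb, the complex III cytochrome b, at 8442, and the complex I subunits mt-Nd1, mt-Nd2, mt-Nd4, mt-Nd5 and mt-Nd6 at 7576, 5041, 3950, 3170 and 2580. The median nuclear member stood at 69.8 CPM per kb. The other 6 lie side by side on the mitochondrial genome and were far lower: mt-Co2 at 66.0, mt-Nd3 at 61.7, mt-Co3 at 60.8, mt-Atp6 at 57.2, mt-Nd4l at 22.3 and mt-Atp8 at 2.36 CPM per kb. Their total counts over all libraries ran from 525 to 51739, against 1490912 to 26394234 for the high 7. The low genes occupy chrM:7013-10173 (GRCm38, plus strand), and a run of annotated pseudogenes on the minus strand of chr1:24611535-24616197 holds a near-identical copy of that stretch. In the GENCODE M21 transcripts mt-Co2 matched Gm28661 over 681 bases at 100% identity, mt-Atp6 matched Gm10925 over 678 bases at 100%, mt-Co3 matched Gm28437 over 783 bases at 100%, mt-Nd4l matched Gm10222 over 294 bases at 100% and mt-Nd3 matched Gm28438 over 345 bases at 99.71%. No copy of mt-Atp8 is annotated, but the gene lies between mt-Co2 and mt-Atp6. The copied stretch also takes in 876 of the 1378 bases of mt-Nd4 (Gm28439, 100%) and 483 of the 1545 bases of mt-Co1 (Gm29216, 99.79%), while mt-Nd1, mt-Nd2, mt-Nd5, mt-Nd6 and mt-Cytb have no annotated copy. The start of mt-Co2 (chrM:7013-7093) and of its copy (chr1:24615485-24615565, minus strand) show why a read from one cannot be told from the other, and the start of mt-Nd3 (chrM:9459-9501) and of its copy (chr1:24613077-24613119, minus strand) hold the single base that differs, in capitals. Sequences are from the GENCODE M21 transcripts on GRCm38, 5′ to 3′:
mt-Co2: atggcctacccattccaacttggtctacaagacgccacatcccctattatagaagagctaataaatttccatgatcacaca
Gm28661: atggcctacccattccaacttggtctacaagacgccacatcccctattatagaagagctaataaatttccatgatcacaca
mt-Nd3: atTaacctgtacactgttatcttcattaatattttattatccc
Gm28438: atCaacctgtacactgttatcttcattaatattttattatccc
The difference in mt-Nd3 is T3C, with the mitochondrial base first and positions counted from 1 at the 5′ end of mt-Nd3. In mt-Co1 the copy differs from the gene at A1066T. The values of the 6 low genes are therefore uncertain, and those of mt-Nd4 and mt-Co1 partly so; how reads that match more than one place were handled is not given in the sources used here. The end of mt-Nd5 (chrM:11742-13565, plus strand) overlaps mt-Nd6 (chrM:13552-14070), the one member read from the minus strand. The libraries were made with a stranded kit, but the strand setting of the counting is not given in the sources used here.

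**Figure D1:**
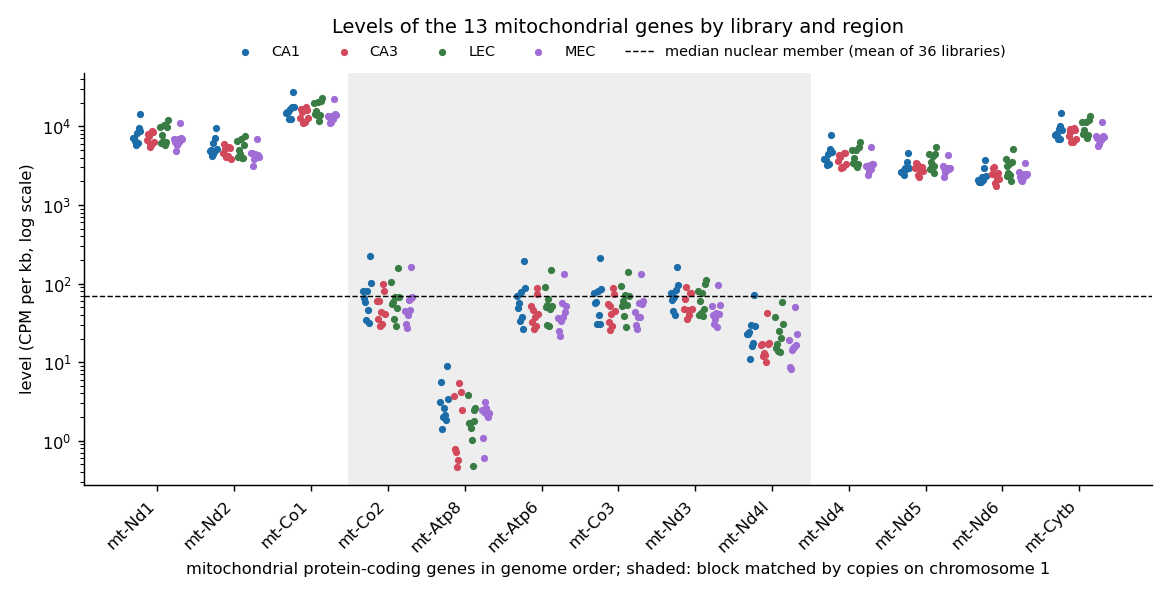
Level of each of the 13 mitochondrial genes (CPM per kb, log scale) in every library, in genome order and coloured by region; the dashed line is the median nuclear member and the shaded genes are the stretch matched by a nuclear copy. The 7 unshaded genes lie at means of 2580 to 15374 CPM per kb and the 6 shaded ones at 2.36 to 66.0; 1 library value of 0 (mt-Atp8) could not be drawn on the log axis.

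Among the nuclear members the housekeeping forms were abundant and the muscle, testis and hypoxia forms of the same subunits were nearly silent. All levels in this paragraph are means of 36 libraries in CPM per kb. In complex V the catalytic beta subunit Atp5b was highest at 584, followed by the alpha subunit Atp5a1 at 323, and Atp5s, a coupling factor, was lowest at 11.2. In complex IV the ubiquitous Cox4i1 stood at 404 and Cox4i2, the hypoxia-linked form, at 0.906. Cox6a1 stood at 171 and its heart and muscle form Cox6a2 at 1.84. Cox6b1 stood at 230 and the testis form Cox6b2 at 2.17. Cox7a2 (168) and Cox7a2l (113) were well above the muscle form Cox7a1 (1.97), as was Cox7b (108) above Cox7b2 (0.537) and Cox8a (266) above Cox8b (0.234). Cox8c had 0 counts in all 36 libraries. Ndufa4, once assigned to complex I and now to complex IV, stood at 304 and its relative Ndufa4l2 at 0.670. The 3 genes for the ring-forming subunit c of the ATP synthase stood at 214 (Atp5g3), 46.2 (Atp5g2) and 27.5 (Atp5g1), but the order of Atp5g2 and Atp5g1 rests on the annotated transcript lengths used, 731 and 4715 bases: in CPM, before dividing by length, they averaged 33.8 and 129. In complex I the highest was Ndufb9 at 172 and the lowest Ndufb2 at 4.82, where the length used was 4371 bases (21.1 CPM before dividing by it, above the 7.13 CPM of Ndufb6), in complex II the flavoprotein Sdha at 166 and the membrane anchor Sdhc at 20.003, and in complex III the hinge protein Uqcrh at 277 and Uqcrq at 9.36. Near-identical stretches elsewhere in the annotation (98% identity or more over at least 75 bases) covered part of 29 nuclear members, and overlapping genes are among them. Their levels are uncertain to that extent: 83.8% of Ndufs3 was covered, 72.2% of Atp5l, 71.1% of Atp5h, 64.6% of Atp5f1, 62.8% of Uqcrb, 45.1% of Cox5b, 42.0% of Cox5a, 40.2% of Ndufb4, 38.4% of Uqcr11, 32.9% of Cox7c, 30% of Ndufa13 and 20.1% of Cox4i1.

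Expression of many nuclear members is known to depend on the transcription factors NRF1 and GABPA (also called NRF2). RefSeq promoter windows (GRCm38.p6; 250 bases before to 50 after the gene start) were found for 69 of the 86 nuclear members. The NRF1 motif, a palindrome whose letters are the first run of capitals in the Cox6a1 and Atp5k promoters printed here, was present in 5 of them (7.25%: Ndufa11, Uqcrc1, Cox6a1, Atp5g2 and Atp5k), against 0.977% of 27025 promoters in all and 1.32% of 17491 protein-coding ones. The GABPA core CCGGAAG, on either strand, was present in 15 of 69 (21.7%), against 9.12% of all and 11.9% of protein-coding promoters, and in the 2 members with both motifs the matches did not overlap. These promoters also held more CG pairs, with a median of 19 per window against 7 in all promoters and 13 in protein-coding ones. Cox6a1 and Atp5k held both motifs, and Atp5l was 1 of 3 members with more than 1 GABPA core (the others were Ndufs3 and Cox8a). These 3 promoters, of genes that fell after foot shock, are printed 5′ to 3′ on the gene's strand (minus in each case), with matches in capitals; CTTCCGG is the reverse complement of the GABPA core. They lie at chr5:115348909-115349208 (Cox6a1), chr5:108434350-108434649 (Atp5k) and chr9:44920693-44920992 (Atp5l).
Cox6a1: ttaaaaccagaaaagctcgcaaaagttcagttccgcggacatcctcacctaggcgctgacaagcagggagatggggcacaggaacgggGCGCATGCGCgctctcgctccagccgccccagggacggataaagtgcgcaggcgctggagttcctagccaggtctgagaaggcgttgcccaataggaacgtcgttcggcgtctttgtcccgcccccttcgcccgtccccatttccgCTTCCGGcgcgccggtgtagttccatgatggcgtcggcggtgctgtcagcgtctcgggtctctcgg
Atp5k: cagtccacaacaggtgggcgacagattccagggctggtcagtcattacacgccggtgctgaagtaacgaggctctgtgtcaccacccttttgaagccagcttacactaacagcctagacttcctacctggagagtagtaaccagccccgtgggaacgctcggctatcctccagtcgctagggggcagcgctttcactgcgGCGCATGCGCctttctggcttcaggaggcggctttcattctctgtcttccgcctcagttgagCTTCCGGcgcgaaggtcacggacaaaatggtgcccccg
Atp5l: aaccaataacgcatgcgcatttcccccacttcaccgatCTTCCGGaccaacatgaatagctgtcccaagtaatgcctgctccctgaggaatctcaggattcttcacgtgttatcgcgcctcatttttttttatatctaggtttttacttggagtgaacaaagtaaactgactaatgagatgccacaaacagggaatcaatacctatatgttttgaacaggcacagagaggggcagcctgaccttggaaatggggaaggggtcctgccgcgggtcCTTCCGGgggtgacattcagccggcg
Counted from the gene start, the NRF1 motif began at position -162 in Cox6a1 and -50 in Atp5k. Among the members with a promoter window and a test after foot shock, 2 of the 41 that fell (4.88%) and 3 of the 27 not called (11.1%) held the NRF1 motif, and 9 (21.95%) and 6 (22.2%) held the GABPA core. Letters alone do not show that a factor binds there.

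In every library the 13 mitochondrial genes together took more of the counts than the 86 nuclear members. The mitochondrial share was 3.98% to 10.5% and the nuclear share 0.724% to 1.15%, which gives 4.43 (MEC context 3) to 11.2 (LEC home cage 3) mitochondrial counts for 1 nuclear count. The mitochondrial sum includes the genes with full or partial copies, whose values are uncertain, and so do the ratios. It averaged 58617 CPM over 36 libraries, and the 5 genes with no annotated copy alone averaged 29262 CPM. In the 12 home cage libraries the mitochondrial share ran from 4.82% over a median of 6.48% to 10.5%. Context libraries ran from 3.98% over 5.45% to 7.70% and fear libraries from 4.30% over 4.76% to 7.82%. The 3 conditions overlapped, with the highest values in home cage libraries of CA1 and LEC. The nuclear share ran from 0.822% over 0.983% to 1.15% in home cage libraries, from 0.724% over 0.849% to 0.907% after context exposure and from 0.731% over 0.814% to 0.943% after foot shock. Here too the ranges overlapped. The highest shares of both genomes (10.5% and 1.15%) were those of CA1 home cage 2; without it, CA3 home cage 2 and context 2 of both fields the highest were 9.21% and 1.098%, and the lowest 3.98% and 0.731%. For both genomes the median of the fear libraries lay below the lowest home cage library, and the median of the context libraries did not. The ratio of mitochondrial to nuclear counts averaged 7.66 ± 1.84 in LEC, 6.83 ± 0.966 in CA1, 6.18 ± 1.14 in CA3 and 5.70 ± 0.980 in MEC (SD, n = 9 each), and the neighbours in that order differed by less than their spread. The coefficient of variation over 36 libraries was 23.2% to 28.7% (median 25.7%) for the 7 high mitochondrial genes and 7.86% to 91.3% (median 20.4%) for the 77 nuclear members with a mean of at least 10 CPM. It was lowest for Uqcrfs1, the Rieske iron-sulfur subunit of complex III, also without the libraries that stood apart (7.20%). The highest value, that of Uqcrq, a small subunit of the same complex, rested on CA3 home cage 2: without that library Uqcr11 was highest, at 43.3%. Summed cytosolic ribosomal protein genes, a set of short abundant mRNAs, moved in the same direction as the nuclear share, with medians of 14280 CPM in home cage, 9805 in context and 9767 in fear libraries and ranges of 9844 to 23824, 7127 to 12679 and 8087 to 13319. Without the 4 libraries the home cage range was 9844 to 17372 with a median of 13742. Their part in the result was not tested.

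**Figure D2:**
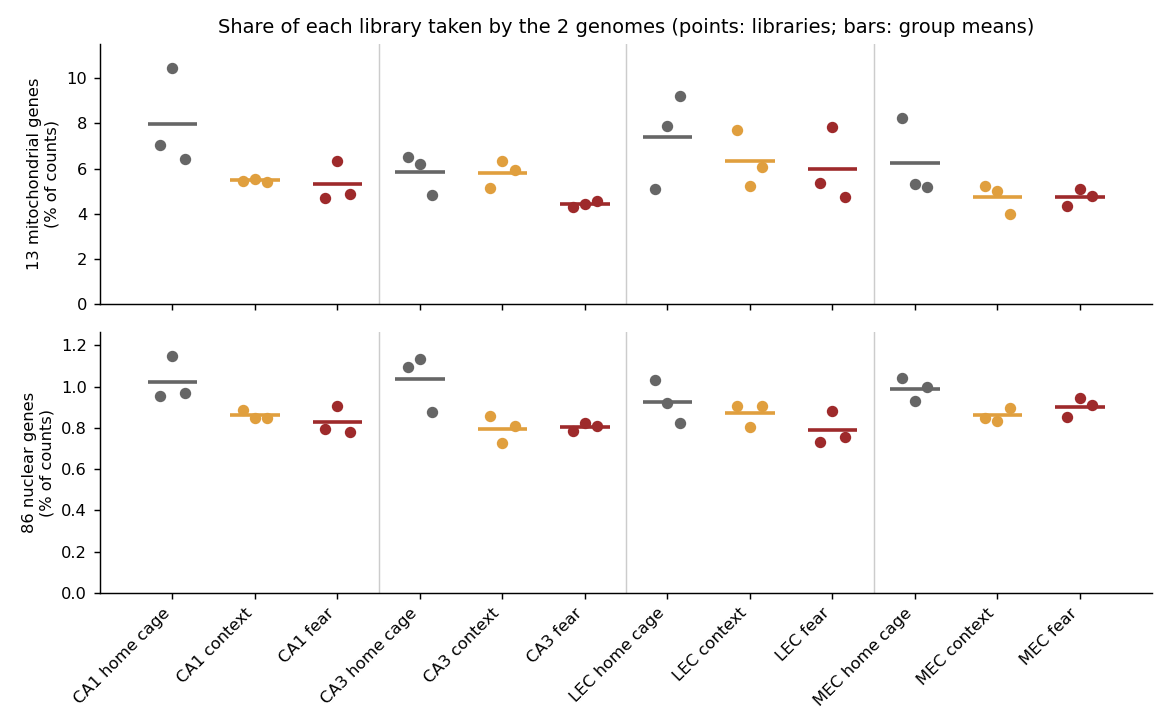
Percent of each library's counts in the 13 mitochondrial (one panel) and the 86 nuclear (other panel) members; each point is a library, bars are means of 3 libraries, and groups are ordered by region and condition. The mitochondrial share spans 3.98% to 10.5% and the nuclear share 0.724% to 1.15%, and the conditions overlap in both.

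Foot shock against home cage, averaged over the 4 regions in one fit of all 36 libraries, gave lower levels of most members in both genomes, although with offsets for GC content and transcript length no mitochondrial gene was called lower. Of 84 nuclear members tested, 49 fell and 0 rose, with a median log2 difference of -0.34, and of 13 mitochondrial genes 11 fell, with a median of -0.44 (edgeR's quasi-likelihood test, Benjamini-Hochberg adjusted p under 0.05 over 17875 genes). Of all genes tested, 24.1% were called in either direction, 9.94% as lower and 14.2% as higher, and their median was -0.003. The fit takes libraries of different regions as independent, although some may come from 1 mouse. In limma voom with a correlation between libraries of 1 condition and replicate number (estimated at 0.0178), an alternative chosen after seeing the data, 45 nuclear and 9 mitochondrial members fell. The labels do not tie replicate numbers to mice, so this correlation cannot show whether libraries of different regions shared a mouse. Of all genes, 21.7% were called by that method, 7.68% as lower. By complex, 23 of 36 nuclear members fell in complex I, 0 of 4 in complex II, 5 of 9 in complex III, 12 of 18 in complex IV and 9 of 17 in complex V.

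In complex I, Ndufa6, an accessory subunit of the LYR family at chr15:82350140-82354322 on the minus strand, ran from 35.4 over a median of 41.5 to 63.0 CPM in the home cage libraries and from 22.2 over 28.6 to 33.6 CPM after foot shock. The 2 groups of 12 did not overlap, and the log2 difference was -0.53 ± 0.07 (SE, adjusted p = 3.89e-06). Ndufa3, another accessory subunit, fell by 0.58 ± 0.08 on the log2 scale. The core subunit Ndufv1 (0.02) was close to 0.

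In complex V, Atp5e, the epsilon subunit of the F1 motor (chr2:174461072-174464105, minus strand), had 37.7 to 71.4 CPM (median 54.9) in home cage, 28.5 to 48.2 (37.9) in context and 30.6 to 44.5 (35.2) in fear libraries. All home cage libraries except LEC home cage 3 lay above every fear library, and the log2 difference of fear from home cage was -0.59 ± 0.08 (adjusted p = 5.79e-06). The membrane subunits Atp5l and Atp5k fell by 0.54 and 0.62. The catalytic subunit Atp5b, by contrast, had 942 to 1254 CPM (median 1095) in home cage and 997 to 1271 (1119) in fear libraries, which overlapped throughout (log2 difference 0.10, adjusted p = 0.184). In complex IV, Cox5b, a nuclear structural subunit (chr1:36691449-36693681, plus strand), had 89.5 to 227 CPM (median 135) in home cage and 70.7 to 105 (79.9) in fear libraries, with a small overlap, and its log2 difference was -0.62 ± 0.10 (adjusted p = 2.85e-05). Cox8a, Cox6c, Cox6b1, Cox7a2, Cox7b and Cox6a1 fell by 0.57, 0.47, 0.46, 0.42, 0.36 and 0.58. In complex III, Uqcrh fell by 0.57 ± 0.09 (adjusted p = 3.30e-05). In complex II, which has no mitochondrially encoded subunit, Sdha ran from 360 over 462 to 555 CPM in home cage and from 420 over 493 to 548 in fear libraries. These overlapped, and the difference of 0.13 ± 0.05 did not pass (adjusted p = 0.0733).

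**Figure D3:**
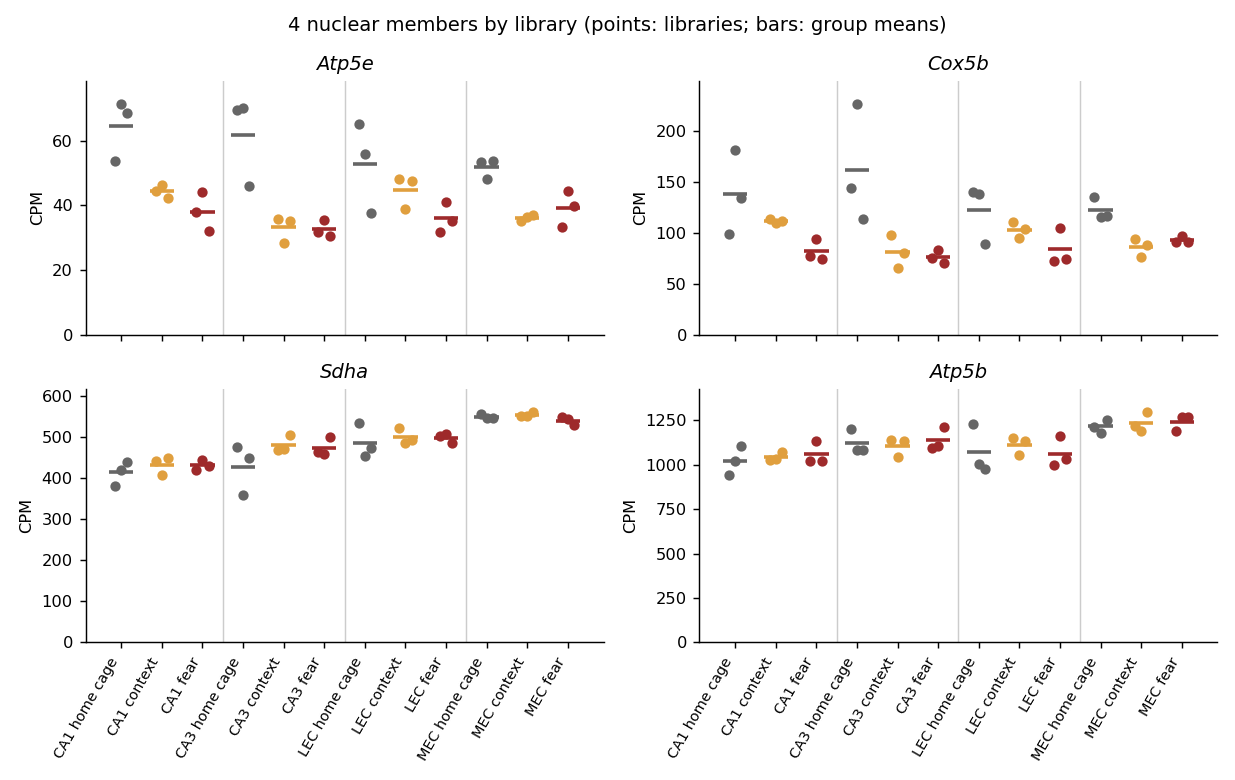
CPM of Atp5e, Cox5b, Sdha and Atp5b in each library (points) with group means (bars), by region and condition. In every region the Atp5e mean is highest in home cage, while Atp5b stays between 942 and 1297 CPM in all 36 libraries.

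Of the mitochondrial genes, the 6 in the copied stretch had the largest differences: all 6 fell after foot shock, with log2 differences from -0.79 (mt-Nd3) to -1.085 (mt-Atp8) and a median of -0.96. Of the 5 genes with no annotated copy, 3 fell (mt-Cytb by 0.36, mt-Nd1 by 0.39 and mt-Nd6 by 0.30), with a median of -0.30 over the 5. mt-Nd5 (-0.22, adjusted p = 0.13) and mt-Nd2 (-0.23, adjusted p = 0.17) did not pass. mt-Cytb had 7916 to 16920 CPM (median 10598) in home cage and 6900 to 12883 (7867) in fear libraries, with wide overlap. For each 1000 counts of the 5 uncopied genes, the copied stretch had 2.74 to 10.4 counts (median 6.12) in home cage, 3.09 to 7.35 (5.06) in context and 3.17 to 6.54 (4.22) in fear libraries. The ranges overlapped. Of the annotated copies only Gm10222, that of mt-Nd4l, is itself in the count table, with 3962 counts over all libraries beside 7194 for mt-Nd4l. Whether reads from the chromosome 1 copies enter these values was not tested.

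**Figure D4:**
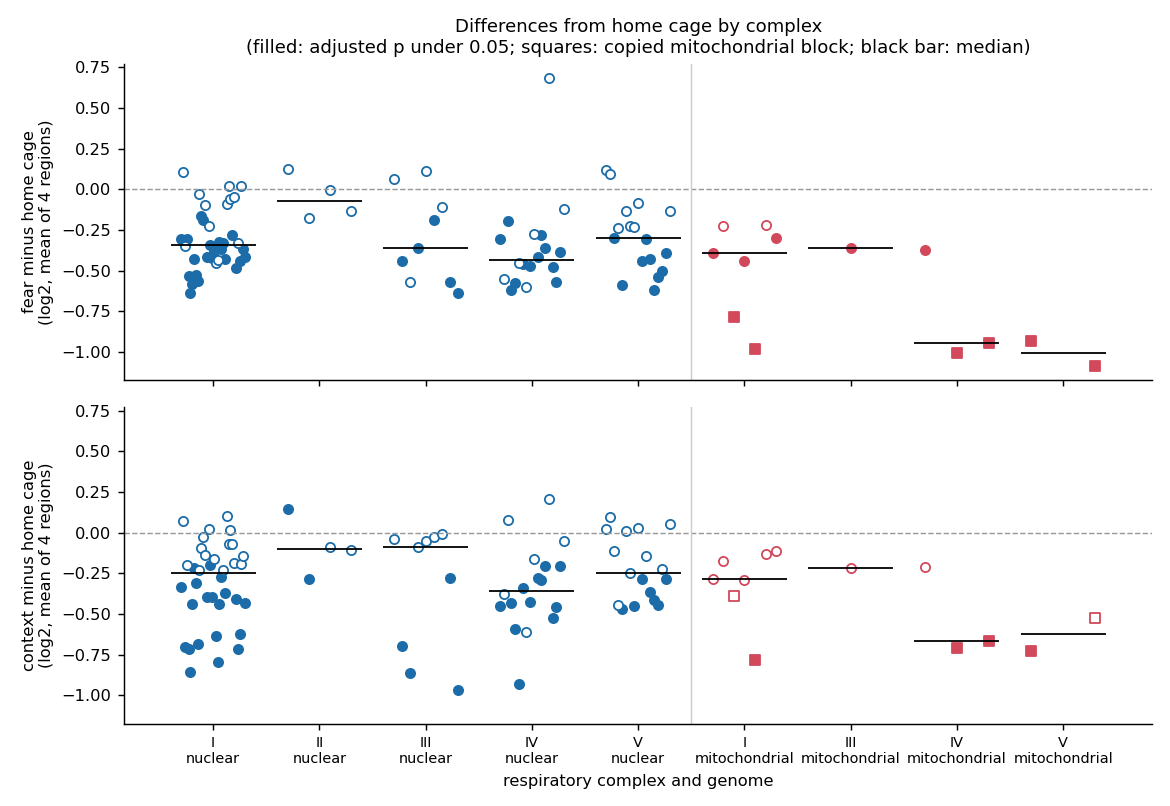
Log2 difference of fear (one panel) and context (other panel) from home cage, averaged over 4 regions, for each member by complex and genome; filled points passed the adjusted p of 0.05, squares are the copied mitochondrial stretch, and black bars are medians. Nuclear medians are -0.34 for fear and -0.27 for context, and the squares lie lowest among the mitochondrial genes; with GC and length offsets (not drawn) no mitochondrial gene was called lower.

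Context exposure against home cage, averaged in the same fit, gave a similar set of values with the same home cage libraries as reference. Of 84 nuclear members, 44 fell and 1 rose, with a median of -0.27, and of 13 mitochondrial genes 4 fell (mt-Nd4l by 0.78, mt-Atp6 by 0.73, mt-Co2 by 0.71 and mt-Co3 by 0.66), with a median of -0.29. Of all genes 22.1% were called in either direction, 8.58% as lower and 13.5% as higher. The member that rose was Sdha, the flavoprotein of complex II, with 408 to 561 CPM (median 489) in context libraries against 360 to 555 (462) in home cage (0.15 ± 0.05, adjusted p = 0.0365), although the ranges overlapped. Its partner Sdhb, the iron-sulfur subunit, fell by 0.28. In complex I 20 of 36 nuclear members fell, in complex III 4 of 9, in complex IV 12 of 18 and in complex V 7 of 17. Atp5e fell by 0.47 ± 0.08 (adjusted p = 1.86e-04), and Atp5l, Cox6c, Ndufb4 and Cox7c fell by 0.44, 0.42, 0.40 and 0.53. Uqcrq fell by 0.97 and Ndufa2, an accessory subunit of complex I, by 0.86. Without home cage 2 and context 2 of CA1 and CA3, 28 nuclear and 0 mitochondrial members fell and 0 rose. For fear the numbers were then 45 nuclear and 7 mitochondrial. In limma voom with the correlation, 42 nuclear members fell after context exposure, 1 rose and 0 mitochondrial genes were called. Of all genes, 19.8% were called by that method, 6.55% as lower.

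In both averaged comparisons the share of protein-coding genes called lower was larger in classes of shorter transcripts. Of protein-coding genes whose longest transcript was under 1000 bases, 36.1% were called lower after foot shock and 36.6% after context, against 17.2% and 17.4% from 1000 to under 2000 bases and 7.07% and 5.97% at 2000 bases or more. For the nuclear members of the 3 length classes the numbers called lower were 26 of 41, 16 of 26 and 7 of 17 after foot shock, and 29 of 41, 9 of 26 and 6 of 17 after context exposure. The class of 2000 bases or more includes Atp5l, Cox6c, Ndufb5, Ndufb8 and Atp5j2, all of which fell after foot shock. The principal transcripts used for their levels have 544, 738, 1079, 680 and 955 bases, so that class does not hold long mRNAs alone. With offsets for GC content and transcript length in each library, 27 nuclear members were called lower after foot shock, 24 of them among the 49 above, and 7 were called higher (Atp5b, Atp5g3, Atp5s, Cox7b2, Ndufa8, Ndufs5 and Uqcrb), with a median of -0.12. With the same offsets 0 mitochondrial genes were called lower and 2 higher (mt-Nd2 and mt-Nd6), with a median of -0.04. For context the offsets left 22 nuclear members lower, 20 of them shared with the 44, and 7 higher, with a median of -0.08, and 0 mitochondrial genes lower and 1 higher (mt-Nd6). The shares of all genes called with the offsets are not given here. These counts therefore do not show whether members were called more often than other genes with the offsets. Atp5e, Atp5l, Cox5b, Cox6c, Ndufa3, Ndufb4 and Ndufa13 were lower in both comparisons with the offsets. The offsets took the longest annotated transcript: 6310 bases for Atp5l, 3038 for Cox6c, 1697 for Atp5e and 782 for Ndufa3. The levels above used 544, 738, 421 and 515 bases for these members. For Cox5b, Ndufb4 and Ndufa13 both lengths were the same. Whether Atp5l, Cox6c, Atp5e and Ndufa3 stay lower with the shorter lengths was not tested.

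Inside single regions the same direction was seen in fewer calls. In CA1, foot shock against home cage gave 0 members called, as for all genes (0%), with edgeR's quasi-likelihood test. There 46 nuclear and 6 mitochondrial members had an unadjusted p under 0.05, all lower, against 9.88% of all genes. DESeq2 called 39 members. Counts of members under DESeq2, the replicate block or the offsets are given here without the share of all genes called in that setting. They therefore do not show whether members were called more often than other genes. Deviations of same-numbered libraries all correlated above 0.1 in this comparison, as in 2 of 12 comparisons within regions. Other matchings of the libraries were not examined, so this does not show that the numbers pair them. With the replicate number as a block 22 nuclear and 1 mitochondrial members were called lower. Ndufa6 had 42.3, 55.1 and 44.1 CPM in CA1 home cage and 28.5, 31.0 and 25.6 in CA1 fear. All fear values were below all home cage values (-0.66 ± 0.12, adjusted p = 0.0623). Such a complete separation downward was found for 44 of 84 nuclear members (52.4%), against 16.4% of all genes. For CA1 context 0 members were called, 31 nuclear and 7 mitochondrial had an unadjusted p under 0.05, all lower (9.59% of all genes), DESeq2 called 13, and 36 of 84 nuclear members (42.9%) were separated downward, against 15.1% of all genes. Without CA1 home cage 1 the CA1 counts of calls were 25 for fear and 2 for context, and without home cage 3 that for fear was 15. Without CA1 home cage 2 and context 2, 0 members were called in both comparisons. The sums of 2 of 13 cell type marker lists did not overlap with home cage after foot shock, and those of 2 after context exposure. The 6 interneuron markers summed to 386 to 491 CPM in home cage, 595 to 722 in fear and 587 to 717 in context libraries. The choroid plexus markers summed to 65.5 to 143 in home cage and 46.6 to 57.4 in fear libraries, and the entorhinal and neocortical layer markers to 298 to 339 in home cage and 365 to 476 in context libraries. Their part in the result was not tested.

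In CA3, 32 of 83 nuclear members and 0 of 13 mitochondrial genes fell after context exposure, where 13.9% of all genes were called, 8.13% as lower and 5.77% as higher. The nuclear median was -0.40 and the mitochondrial median 0.06. Uqcr10, a small subunit of complex III, had 62.5, 81.7 and 40.9 CPM in home cage, 29.0, 12.3 and 16.6 in context and 31.2, 39.2 and 26.4 in fear libraries. Both behaviour groups lay below all home cage values, with home cage 2 highest and context 2 lowest, and the context difference was -1.55 ± 0.30 (adjusted p = 0.0450). Uqcrq had 22.1, 85.3 and 16.9 CPM in home cage and 9.96, 4.03 and 6.30 in context libraries (-2.47 ± 0.57), again with the extremes in the same 2 libraries. Atp5e had 69.4, 70.1 and 45.9 in home cage, 35.9, 28.5 and 35.1 in context (-0.77 ± 0.16) and 31.9, 35.3 and 30.6 in fear libraries (-0.83, adjusted p = 0.15). Each adjusted p was close to the threshold: 0 members were called without any one of context 2, context 3, home cage 1, home cage 2 or fear 1, 2 or 3, and 0 without both context 2 and home cage 2. GC and length offsets left 6. In CA3 context 45 of 83 nuclear members (54.2%) were separated downward, against 22.6% of all genes. Of the 7 dentate granule cell markers 1 was called lower in CA3 after context exposure, and of the 9 oligodendrocyte markers 0 were called. For CA3 foot shock 0 members were called (0.00619% of all genes), 44 nuclear and 6 mitochondrial had an unadjusted p under 0.05, all lower (9.55% of all genes were, and 9.32% were higher), DESeq2 called 23, and 63 of 83 nuclear members (75.9%) were separated downward, against 19.4% of all genes. Without CA3 home cage 3, 19 were called, and without CA3 home cage 2 and context 2, 0. Of the 13 marker lists, 4 did not overlap with home cage after foot shock and 5 after context exposure. Interneuron markers summed to 458 to 495 CPM in home cage, 538 to 575 in fear and 538 to 635 in context libraries, and entorhinal and neocortical layer markers to 240 to 279, 321 to 327 and 286 to 333. Blood markers summed to 32.4 to 58.4, 15.1 to 20.3 and 9.04 to 19.7 CPM. Microglial markers summed to 252 to 414 in home cage and 198 to 247 in context, CA3 pyramidal markers to 844 to 1191 and 1249 to 1310, and subicular markers to 11.3 to 17.6 in home cage and 20.5 to 42.1 in fear libraries. Their part in the results was not tested.

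In LEC 0 members were called for foot shock (0% of all genes), with 34 nuclear and 4 mitochondrial at an unadjusted p under 0.05, all lower (3.86% of all genes were, and 3.71% were higher), and DESeq2 called 1. Cox8a, a small complex IV subunit, had 186, 185 and 138 CPM in LEC home cage and 102, 130 and 104 in LEC fear, without overlap (-0.63 ± 0.14, adjusted p = 0.527). Without LEC home cage 3, 5 members were called. For LEC context 0 were called (0% of all genes), 1 nuclear member was lower at an unadjusted p under 0.05, as were 1.24% of all genes (1.22% were higher), and DESeq2 called 0. Complete separation downward was found for 11 of 84 nuclear members after foot shock (13.1%, against 4.27% of all genes) and 5 after context exposure (5.95%, against 2.63%). Of the marker lists 1 did not overlap for foot shock: the layer markers summed to 555 to 729 CPM in home cage and 810 to 984 in fear libraries, and their part was not tested.

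In MEC, 5 of 83 nuclear members (Uqcrh, Atp5h, Cox7a2, Ndufb4 and Cox5b) and 0 of 13 mitochondrial genes fell after foot shock, where 9.56% of all genes were called, 3.88% as lower and 5.68% as higher. Uqcrh, the hinge protein of complex III (chr4:116066965-116075071, minus strand), had 244, 173 and 164 CPM in home cage and 118, 138 and 130 in fear libraries. The groups did not overlap, with home cage 1 highest (-0.55 ± 0.14, adjusted p = 0.0264). Atp5h, part of the peripheral stalk of complex V, had 289, 213 and 203 against 160, 181 and 165 (-0.44 ± 0.13). Leaving out single MEC libraries gave 34 calls without home cage 3, 1 without home cage 2 or without any one context library, and 0 without home cage 1 or without any one fear library. In 1 fit of all 36 libraries 0 members were called for this comparison, and DESeq2 called 12. Complete separation downward was found for 38 of 83 nuclear members (45.8%), against 19.4% of all genes. With GC and length offsets 1 nuclear member was lower and 5 were higher, and 2 mitochondrial genes were higher. Of the 9 oligodendrocyte markers 5 rose in MEC after foot shock, with a summed level of 1656 to 2363 CPM in home cage and 2420 to 3370 in fear libraries. The interneuron markers (618 to 686 CPM in home cage, 789 to 847 in fear), endothelial markers (68.5 to 76.5 and 86.6 to 127), CA1 pyramidal markers (221 to 379 and 445 to 533) and CA3 pyramidal markers (508 to 521 and 614 to 636) did not overlap either, and the part of these lists in the result was not tested. For MEC context 0 members were called (0.57% of all genes), 42 nuclear and 8 mitochondrial had an unadjusted p under 0.05, all lower (6.87% of all genes), and DESeq2 called 15. Deviations of same-numbered libraries all correlated above 0.1 here too, with the same limit as in CA1. With the replicate number as a block 14 nuclear and 1 mitochondrial members were called lower. Atp5l had 95.1, 78.5 and 89.5 CPM in home cage and 59.9, 56.7 and 66.4 in context libraries, without overlap (-0.49, adjusted p = 0.0570). Complete separation downward was found for 41 of 83 nuclear members (49.4%), against 11.3% of all genes. Without MEC home cage 3, 4 members were called. In context libraries interneuron markers summed to 707 to 812 CPM, CA3 pyramidal markers to 574 to 633, layer markers to 975 to 1003 (797 to 948 in home cage) and astrocyte markers to 1511 to 1593 (1640 to 1982 in home cage), without overlap. Their part was not tested.

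Foot shock against context, a comparison in which no home cage library enters the difference, gave 0 members called in each region with edgeR's quasi-likelihood test (0% of all genes in each). Members with an unadjusted p under 0.05 numbered 3 in CA1, all lower (2.26% of all genes were lower and 3.42% higher), and 27 in CA3, 22 lower and 5 higher (11.3% and 12.2%). In LEC 1 was lower (0.354%, with 0.908% higher) and in MEC 13 were higher (7.79%, with 6.89% lower). DESeq2 called 5 in CA3 and 0 elsewhere. The replicate block gave 5 calls in MEC, where deviations of same-numbered libraries did not all correlate above 0.1. In CA3 the mitochondrial median was -0.43 with all 13 genes below 0, and the nuclear median was -0.03. Without CA3 context 1, 27 members were called.

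No member differed between regions in its response by the test of that difference. For foot shock 0 members passed the interaction test (3 of all genes, 0.0168%), the smallest adjusted p was 0.521, and 4 had an unadjusted p under 0.05, against 8.12% of all genes. For context 0 passed (0% of all genes), the smallest adjusted p was 0.238, and 13 had an unadjusted p under 0.05, against 17.7% of all genes, with Uqcrq, Uqcrb, Cox6a1, Cox8a, Ndufv1 and Uqcr10 the smallest. DESeq2's likelihood ratio test also called 0 in both. Without CA3 context 1, 6 members passed for context.

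**Figure D5:**
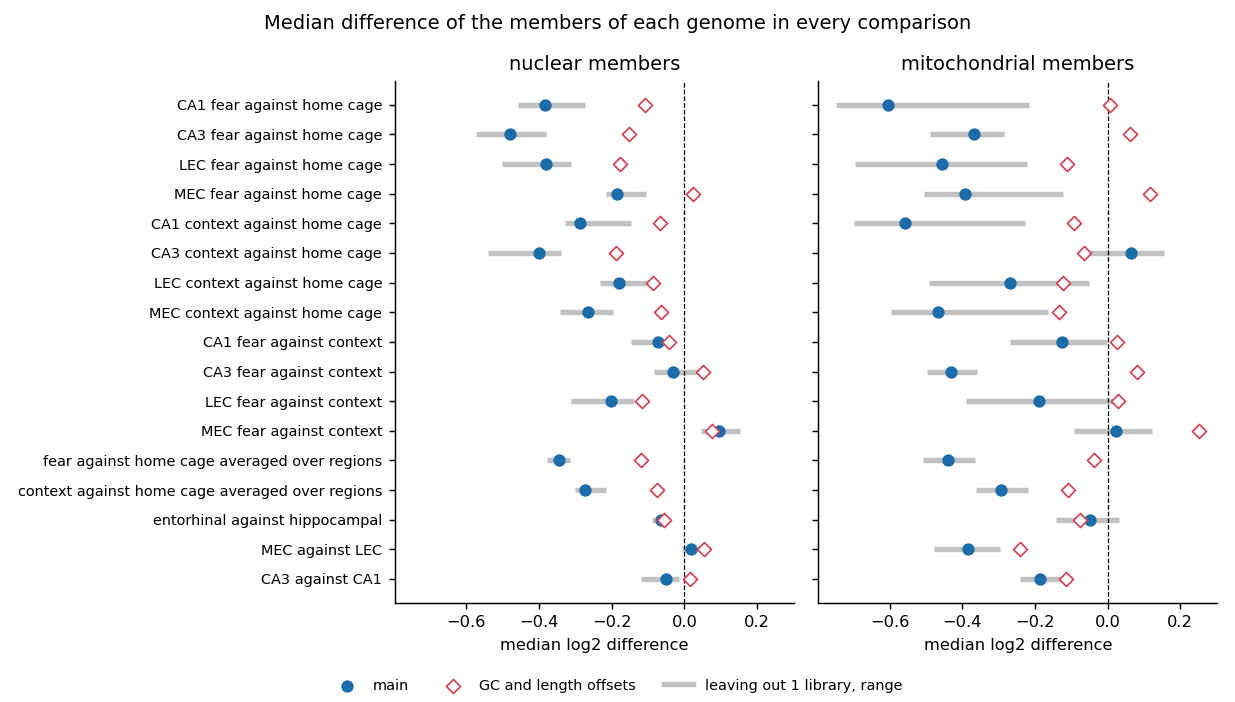
Median log2 difference of the nuclear and of the mitochondrial members in every comparison, without offsets (filled circles) and with GC and length offsets (open diamonds). Most medians of behaviour against home cage are below 0 without offsets, the genomes lie apart in CA3 context (-0.40 nuclear, 0.06 mitochondrial), CA3 fear against context (-0.03 and -0.43) and MEC against LEC (0.02 and -0.38), and the offsets bring the medians closer to 0 for the averaged comparisons.

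Few members differed between the entorhinal cortex and the hippocampal fields. In the entorhinal cortex (mean of LEC and MEC) against the hippocampal fields (mean of CA1 and CA3), 17 nuclear members were lower, 2 were higher and 0 mitochondrial genes were called, where 50.9% of all genes were called, 25.4% as lower and 25.5% as higher. Ndufa5, an accessory subunit of complex I (chr6:24518666-24528013, minus strand), averaged 64.4 ± 13.99 CPM in CA1 and 51.3 ± 12.03 in CA3, against 44.1 ± 7.89 for LEC and 43.97 ± 7.20 for MEC (SD, n = 9 each). LEC and MEC did not differ beyond their spread, and the entorhinal difference was -0.41 ± 0.06 (SE, adjusted p = 3.55e-07). Cox6a1, Uqcr10, Ndufa7, Ndufa13, Ndufv3 and Cox8a were also lower, by -0.41, -0.38, -0.37, -0.37, -0.28 and -0.26. Sdha was higher, with 548 ± 9.08 CPM in MEC and 495 ± 24.6 in LEC, against 461 ± 42.3 in CA3 and 426 ± 21.2 in CA1 (0.19 ± 0.04, adjusted p = 3.05e-04). Cox6a2, the muscle form, was higher by 0.86, but at means of only 0.741 to 1.74 CPM. With GC and length offsets 26 nuclear members were lower and 5 higher, and 3 mitochondrial genes were lower and 1 higher. Oligodendrocyte markers moved with this comparison: 9 of 9 were lower in the entorhinal cortex, and their sum was 1125 to 1767 CPM in LEC and 1656 to 3370 in MEC, against 3480 to 13147 in CA1 and 5271 to 13262 in CA3. Their part in the result was not tested.

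MEC against LEC was the region comparison in which mitochondrial genes were called. mt-Cytb, mt-Nd4, mt-Nd5 and mt-Nd6 were lower in MEC, by -0.44 ± 0.12 (adjusted p = 0.00788), -0.44, -0.37 and -0.38, the nuclear median was 0.02, and 17.4% of all genes were called, 8.59% as lower and 8.8% as higher. mt-Cytb ran from 8146 over 10233 to 15467 CPM in LEC and from 6431 over 8155 to 13055 in MEC, with overlap. Ndufb4, an accessory subunit of complex I, was lower in MEC (-0.28), and 1 nuclear member was higher. The total of 6 members became 3 without LEC context 1, 13 without LEC home cage 1 and 11 without MEC home cage 1, and 15 with GC and length offsets. All 9 oligodendrocyte markers were higher in MEC than in LEC, and their part was not tested.

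In CA3 against CA1, 4 members were higher (Ndufa10, Ndufa9, Sdha and Atp5b) and 5 lower (Sdhb, Sdhc, Ndufb11, Ndufa5 and Cox7a2l), and 0 mitochondrial genes were called, where 31% of all genes were called, 14.6% as lower and 16.4% as higher. Ndufa10, an accessory subunit of complex I, ran from 137 over 162 to 180 CPM in CA3 and from 120 over 131 to 157 in CA1, with some overlap (0.34 ± 0.07, adjusted p = 1.88e-04). Within complex II the flavoprotein Sdha was higher (0.18) while Sdhb and Sdhc were lower (-0.27 each). The total of 9 became 22 without CA3 context 1, 16 without CA3 home cage 2 and 18 with GC and length offsets. Of the 9 oligodendrocyte markers, 5 were higher in CA3.

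The neighbouring pathways were read in the same averaged comparisons, in which 14.2% of all genes rose and 9.94% fell after foot shock and 13.5% rose and 8.58% fell after context exposure. Of 83 cytosolic ribosomal protein genes 77 fell after foot shock and 78 after context (medians -0.52 and -0.53), and with GC and length offsets 65 and 67 did. Of 76 mitochondrial ribosomal protein genes 24 fell and 1 rose after foot shock, and 19 fell and 1 rose after context. Among 21 glycolytic genes 10 rose and 0 fell after foot shock, with Pgam1, the phosphoglycerate mutase, at 0.47 and Pfkp, a phosphofructokinase, at 0.34. After context 4 rose, with the glucose transporter gene Slc2a3 at 0.32, and 2 fell, with Aldoc at -0.34. Of 26 genes of the tricarboxylic acid cycle and pyruvate entry 5 rose and 4 fell after foot shock, with citrate synthase (Cs) at 0.25 and the pyruvate carrier Mpc1 at -0.39. Of 49 assembly factors 3 rose and 12 fell, with Pet100 at -0.54 and Uqcc2 at -0.52. Of 36 genes that express the mitochondrial genome 4 rose and 12 fell, with the RNA-binding protein gene Slirp at -0.64. Of 14 regulators of mitochondrial biogenesis 3 rose and 0 fell after foot shock and 4 rose and 0 fell after context, with Ppargc1a (PGC-1 alpha) at 0.37 and 0.42 and Esrrg at 0.43 and 0.55. With GC and length offsets the counts after foot shock were 11 rising and 1 falling for glycolysis, 9 and 2 for the tricarboxylic acid cycle, 5 and 6 for assembly factors, 5 and 10 for expression of the mitochondrial genome and 3 and 16 for mitochondrial ribosomal proteins. After context they were 6 and 1, 6 and 3, 7 and 5, 5 and 5, and 3 and 11. The counts for the regulators were 2 rising and 3 falling after foot shock and 3 and 1 after context. The shares of all genes that rose and fell, given above, belong to the fit without offsets. Those with the offsets are not given here, so the pathway counts with offsets have no such share beside them. Of the cell type markers, averaged over regions, of 9 oligodendrocyte genes 1 fell after foot shock and 0 after context, of 7 astrocyte genes 3 and 2 fell, and of 8 microglial genes 3 and 4 fell, with 1 rising after foot shock. Of 6 interneuron genes 2 rose in each comparison.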

How the data were processed

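RNA from 36 libraries (4 regions, 3 conditions, 3 libraries each) was made with a stranded poly(A) kit, per the labels' protocols. The authors deposited whole-number read counts per Ensembl gene. Trimmomatic 0.33, STAR 2.7.10b and HTSeq 2.0.1 with mm10 are named per the submitters' processing notes; the sources used here give neither annotation release nor strand setting. The 36 single files held the same counts as the table. Symbols, found for 35449 of 37315 IDs (95%; the rest held 0.208% of counts), biotypes, transcripts and positions came from GENCODE M21. 1 of 2 annotated genes named Atp5o is not analysed here.

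Each region was fitted alone (9 libraries; 16163, 16145, 16402 and 16314 genes in CA1, CA3, LEC and MEC) and regions, averaged effects and interactions in 1 fit of 36 (17875 genes), with edgeR 4.0.16 in R 4.3.3: filterByExpr, TMM, robust glmQLFit and glmQLFTest, Benjamini-Hochberg adjustment over all genes tested, calls at 0.05. Cox8b and Cox8c did not pass the filter on low counts in any fit, nor did Cox7b2 in CA3 and MEC, so 97 or 96 members were tested. A log2 difference is the fitted one, with its standard error. CPM are counts scaled to a common library total, and per kb divides them by the length of the longest principal transcript. Length classes and length offsets use the longest annotated transcript instead, which is much longer for some members. Depth per library sets the counting error, which is small at these totals beside the spread between libraries. The scripts were tested on simulated data. Of genes changed 1.5-fold, 7.5% were recovered for MEC fear against home cage and 88% for entorhinal against hippocampal in the fit of 36. Of genes changed 2-fold, 76% and 97% were recovered. A count of 0 calls inside a region therefore does not show that no member changed.

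The members and gene lists were chosen with earlier results of these data known. Named genes were the isoform pairs, the highest and lowest member per length of each complex, the members of smallest p in each condition comparison (4 per direction; 6 for averaged effects and interactions), the 8 called with the largest difference in each direction between regions, and 2 per pathway list; part of these is printed, 1 gene is not reported here, and members named for a call of 5 or fewer or as contrasts (Ndufv1, Sdhb) were chosen after their values were seen. Replicate numbers appear in the labels without a stated meaning. Deviations from group means over 8369 genes correlated above 0.1 for each same-numbered pair in 2 of 12 comparisons within regions: CA1 home cage and fear (0.324, 0.44 and 0.248) and MEC home cage and context (0.638, 0.319 and 0.793). Between regions of 1 condition they did so in 4 of 18: CA1 and CA3 fear, CA1 and LEC fear, CA3 and LEC fear, and LEC and MEC context. Alternatives were RLE scaling, no filter, scaling on nuclear genes, DESeq2 1.42.0, a replicate block, GC and length offsets (alone and with the block), one fit of 36, CA1 and CA3 without the libraries home cage 2 and context 2, and leaving out each library. limma voom (limma 3.58.1), without and with a correlation between libraries of 1 condition and number, was added after seeing the data for the averaged comparisons.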

Additional observations from a re-analysis of the deposited data

How the results depend on the processing

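Of the averaged comparisons, 60 members for foot shock became 61 with RLE, 54 without the filter, 61 with scaling on nuclear genes, 65 with DESeq2, 52 without the 4 CA1 and CA3 libraries that stood apart, 36 with GC and length offsets and 53 to 64 without single libraries, and 49 for context became 52, 45, 52, 54, 28, 30 and 41 to 57. limma voom, added after seeing the data, gave 55 and 46, and 54 and 43 with a correlation between libraries of 1 condition and number. Without the filter on low counts, 21 members were called for CA1 fear, 3 for CA1 context, 2 for CA3 fear, 22 for CA3 context, 11 for MEC fear, 13 for MEC context and 5 for CA3 against CA1. DESeq2 gave 39, 13, 23, 35, 12 and 15 for the first 6 of these, 1 for LEC fear and 5 for CA3 fear against context. GC and length offsets gave 1 for CA3 fear, 6 for CA3 context, 8 for MEC fear, 1 for MEC context, 35 for entorhinal against hippocampal, 15 for MEC against LEC and 18 for CA3 against CA1. In 1 fit of 36 libraries the numbers were 23 for CA1 fear, 2 for CA1 context, 24 for CA3 fear, 44 for CA3 context and 0 for MEC fear, and without those 4 libraries 0 for CA3 context. The shares of all genes called in these settings are not given here, and the cause of these shifts was not tested.

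With a replicate block the counts were 23 for CA1 fear, 20 for CA3 context, 25 for MEC fear, 15 for MEC context, 5 for MEC fear against context, 59 for averaged fear and 47 for averaged context, and it changed no other count of calls by more than 1.5 times. The block with the offsets gave 8 for CA3 fear, 14 for CA3 context, 14 for MEC fear, 4 for MEC context, 1 for MEC fear against context, 32 for entorhinal against hippocampal, 16 for MEC against LEC, 18 for CA3 against CA1, 36 for averaged fear and 30 for averaged context.

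Leaving out 1 library at a time gave 0 to 25 calls for CA1 fear, 0 to 2 for CA1 context, 0 to 19 for CA3 fear, 0 to 46 for CA3 context, 0 to 27 for CA3 fear against context, 0 to 5 for LEC fear, 0 to 34 for MEC fear, 0 to 4 for MEC context, 16 to 26 for entorhinal against hippocampal, 3 to 13 for MEC against LEC, 6 to 22 for CA3 against CA1 and 0 to 6 for the context interaction. Of 108 named values, 8 changed sign with the offsets, without and with the replicate block: for averaged fear mt-Nd1 (0.11 and 0.11), mt-Nd2 (0.30 and 0.30), mt-Nd4 (0.018 and 0.020), mt-Nd5 (0.12 and 0.12), mt-Nd6 (0.40 and 0.39) and mt-Cytb (0.062 and 0.063), for averaged context mt-Nd6 (0.23 and 0.23), and for CA3 fear against context mt-Nd6 (0.14 and 0.13). None of 2808 leave-one-out values changed sign. Many named values were chosen in these data for a small p or a large difference, so a change of sign was unlikely. Without home cage 2 and context 2 of CA1 and CA3, 16 named values lost their call, 0 gained one and 76 kept their status. The depth limits mt-Atp8, Cox7b2, Cox8b and Cox8c, whose total counts were 525, 319, 101 and 0.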
